A study of Ovis aries with 3 samples.

Results

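Tail bud cells were picked out of single-cell RNA libraries of whole sheep embryos by the genes that mark the growing tail end of the embryo. A cell was taken when at least 2 of 9 genes (*T*, *FGF17*, *WNT3A*, *CDX2*, *CDX4*, *HES7*, *MSGN1*, *TBX6* and *SP5*) had a unique molecular identifier (UMI, a count of 1 captured RNA molecule) and when *AHSP*, the alpha-haemoglobin stabilising protein of red blood cells, had under 5 UMIs. This rule found 693 cells among the 31576 kept cells of 3 libraries. Of these, 635 were in E16 HS, 45 in E19 HS and 13 in E19 HSTS. E16 HS and E19 HS were embryos of Hu sheep at embryonic day 16 and 19, a breed whose fat tail is longer than that of the Hulunbuir sheep and which has the wild-type *T* gene. E19 HSTS was an embryo of the Hulunbuir short-tailed sheep at embryonic day 19, a breed that the study describes as carrying a missense change in *T*. All embryos came from ewes after artificial insemination, were digested whole with collagenases and passed a red blood cell lysis step. Each condition had 1 library and both E19 libraries came from 1 embryo each, while for E16 HS the label names 1 embryo and the study lists 3, so whether this library pools embryos was not settled. The libraries therefore allow no test between conditions, and stage or breed cannot be told apart from the library.

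The tail bud is the mass of cells left at the hind end of the embryo once gastrulation is over, and the body lengthens from it. It holds progenitors that feed the neural tube and the paraxial mesoderm, the tissue that segments into somites, and that in other mammals are known to carry *T* and *SOX2* together. FGF and WNT signals keep these cells undifferentiated, retinoic acid from the somites opposes them, and *CDX* and *HOX* genes set their position along the body axis. *T*, or brachyury, is the T-box factor of this zone and of the notochord, and its loss is known to truncate the tail.

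The cells that met the rule made up 5.61% of the kept cells of E16 HS (exact binomial interval 5.19 to 6.04%), 0.423% of E19 HS (0.309 to 0.566%) and 0.135% of E19 HSTS (0.0720 to 0.231%). The share was thus highest in E16 HS and lowest in E19 HSTS, and the 3 intervals did not overlap. It is a share of cells that met the rule, and in E19 HSTS most markers of the tail bud were missing from those cells, as given below. All intervals given here are exact, at the 95% level, and cover counting error only. Cells with at least 5 *AHSP* UMIs, in which the 9 genes should be absent, carried at least 2 of them in 0.602% of 1993 cells in E16 HS, 0.0714% of 1401 in E19 HS and 0 of 2499 in E19 HSTS, which allows a share of up to 0.148%. The share in E19 HSTS lay just below that last limit, although its red cells were deeper, at a median of 17925 UMIs. The cells that met the rule had a median of 9819 UMIs and 2353 genes in E16 HS, 7694 and 1930 in E19 HS, and 8587 and 2261 in E19 HSTS. The other kept cells with under 5 *AHSP* UMIs, called other cells below, had medians of 7892, 6330 and 7194 UMIs, so the rule, which asks for detection, was met by somewhat deeper cells. Of the cells that met it, 63 in E16 HS, 4 in E19 HS and 3 in E19 HSTS had a doublet score in the top 8% of their library. Between 38 and 42 cell barcodes occurred in each pair of libraries, and none of them met the rule in both.

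*CDX2* and *CDX4*, caudal homeobox factors, chose most of the cells. In E16 HS *CDX2* was detected in 559 cells (88.0%) at 178 UMIs per 1000000 UMIs (CPM) and *CDX4* in 421 (66.3%) at 86.1 CPM. *FGF17*, a secreted growth factor, followed with 252 cells (39.7%, 46.9 CPM) and *T* with 141 cells (22.2%, 27.1 CPM). The genes of the segmenting mesoderm were rarer, with the oscillating repressor *HES7* in 11.0% of the cells, the presomitic factor *MSGN1* in 7.72% and the T-box factor *TBX6* in 3.94%. The WNT ligand *WNT3A* was detected in 4.25% and the WNT target *SP5* in 5.51%. In the cells with at least 5 *AHSP* UMIs the 9 genes were each found in 0 to 1.66%. These levels made the rule and are a description only. Of all E16 HS cells with under 5 *AHSP* UMIs and a *T* UMI, 88.7% were tail bud cells, against 47.4% of those with *CDX2* and 40.7% of those with *SP5*. *CDX2* and *CDX4* were found together in 377 of the 635 cells, and 239 cells (37.6%) were chosen by this pair alone.

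At E19 all 9 genes were found among the 45 cells of the HS library, but not among the 13 of HSTS. *CDX2* with *CDX4* alone chose 22.2% of the 45 cells, against 37.6% in E16 HS. *HAND2* or *PITX1*, factors of lateral mesoderm, was in 0 of the 45, which allows up to 7.87%, against 12.0% in E16 HS. In the other cells the share was also lower in E19 HS, at 7.52% against 22.3% in E16 HS. In E19 HS, *CDX2* was in 35 cells, *CDX4* in 23, *FGF17* in 18, *T* in 16, *MSGN1* in 8, *WNT3A* and *SP5* in 4 each, *HES7* in 3 and *TBX6* in 1. In E19 HSTS, *CDX2* was in 12 cells and *CDX4* in 10, whereas *T* was in 1 cell, which also held *SHH*, *TBX6* was in 1 cell, *SP5* in 2, and *FGF17*, *WNT3A*, *HES7* and *MSGN1* were in 0 of 13, which allows a share of up to 24.7%. In that library 9 of the 13 cells (69.2%) were chosen by *CDX2* with *CDX4* alone. Of the 5 markers that name these cells (*T*, *CDX2*, *CDX4*, *FGF17*, *MSGN1*), all were present in both HS libraries, while *FGF17* and *MSGN1* were absent and *T* was in 1 cell in E19 HSTS. All 5 are genes of the rule, so their presence followed from the choice of cells and is no separate support for the name. Tail bud cells is used below as a label for all cells that met the rule in the HS libraries. In E16 HS 310 of these 635 cells had neither *T* nor *FGF17*, and 239 were chosen by *CDX2* with *CDX4* alone. The 13 cells are referred to below as the E19 HSTS cells that met the rule.

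**Figure D1:**
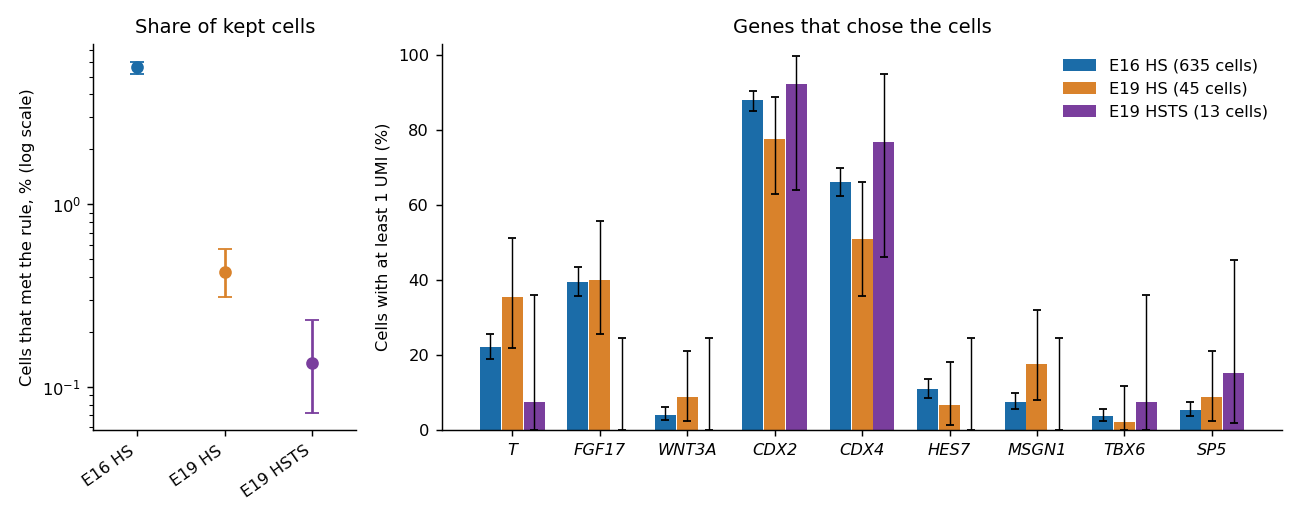
Left, cells that met the rule as a percent of the kept cells of each library, on a log scale. Right, percent of those cells in each library with at least 1 UMI of each of the 9 genes of the rule. Points and bars are the measured values and lines the exact 95% intervals. The share was 5.61% in E16 HS, 0.423% in E19 HS and 0.135% in E19 HSTS, and *CDX2* was the gene most often detected in all 3 libraries.

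Just inside the rule, 419 cells of E16 HS carried exactly 2 of the 9 genes. Just outside it, 943 carried exactly 1. A further 143 cells carried 3 genes, 56 carried 4, 16 carried 5 and 1 carried 8. Several genes that the rule did not use followed this number. The rising ones given here had some of the largest ratios of tail bud to other cells in this library. Their rise from 0 or 1 to 2 or more genes thus repeats that contrast and is no separate support. *FGF8*, the FGF ligand of the tail bud, stood at 7.46 CPM in E16 HS cells with 0 of the 9 genes, 48.2 with 1, 121 with 2, 269 with 3 and 339 with 4 or more. *CYP26A1*, the enzyme that degrades retinoic acid, stood at 0.814, 5.35, 16.2, 49.2 and 58.2 CPM, and the fructose transporter *SLC2A5* at 10.4, 87.8, 221, 379 and 454 CPM. *COL1A1*, a collagen chain of mesenchyme, went the other way, from 1110 CPM with 0 genes to 57.1 with 4 or more. *SOX2*, the factor of neural progenitors, was highest with exactly 2 genes (155 CPM) and returned to 48.3 CPM with 4 or more, near the 48.8 CPM of cells with none. The medians of UMIs per cell were 7826, 8323, 9615, 9819 and 11102 from 0 to 4 or more genes, so depth moved with the number too, and its part was not tested.

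**Figure D2:**
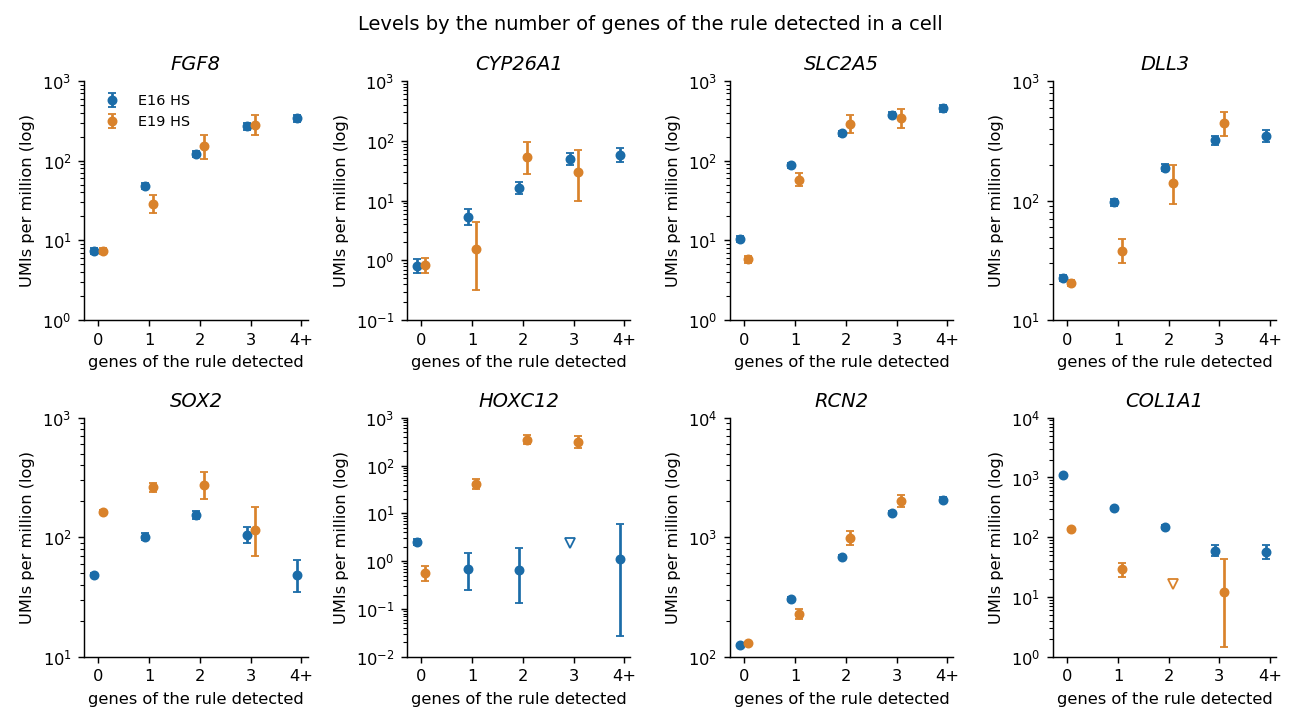
Levels of 8 genes outside the rule in cells with under 5 *AHSP* UMIs, in CPM on a log scale, against the number of the 9 genes detected in the cell, for E16 HS (blue) and E19 HS (orange). Lines are exact 95% intervals and an open triangle is the upper limit at 0 UMIs; the point at 3 holds 3 or more genes in E19 HS. In E16 HS *FGF8* went from 7.46 CPM with 0 genes to 339 with 4 or more and *COL1A1* from 1110 to 57.1, and *HOXC12* was high in E19 HS alone.

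The whole profile of the tail bud cells of E16 HS was set against the 8701 other cells of that library. Among 4138 genes with at least 20 CPM in either group and outside the rule, 114 were at least 2-fold higher in the tail bud cells (2.75%) and 125 at least 2-fold lower (3.02%). Since the cells were chosen by co-expressed genes within this contrast, these counts and the values that follow describe the cells and were not tested. The highest ratios belonged to *CYP26A1* at 21.7 (17.0 to 27.8), *FGF8* at 15.0 (13.8 to 16.4), *SLC2A5* at 14.9 (13.9 to 15.9), *PCP4*, a calmodulin regulator, at 12.2 (9.65 to 15.5) and *WNT5B*, a noncanonical WNT ligand, at 11.6 (10.5 to 12.9). These genes are a retinoic acid enzyme, a pair of ligands, a sugar transporter and a calcium signalling protein. Those that followed included *LY6G6D*, *HOXC10*, *DEFB2*, *TTC12*, *DLL3*, *RCN2*, *ERICH2*, *PTK7* and *CITED1*, with ratios from 9.76 down to 6.33. Some of these values depend on the cells taken. With cells thinned to 3000 UMIs before the rule was applied, *DEFB2* stood at 3.44 in place of 8.92, *PTK7* at 4.05 in place of 6.67 and *CYP26A1* at 14.1 in place of 21.7. With at least 3 genes of the rule *DEFB2* stood at 4.53, and without *CDX2* in the rule at 3.78. The symbol *DEFB2*, a beta-defensin, stands for 3 genes in the table, and the value of 63.8 against 7.16 CPM is of ENSOARG00020017835. *RCN2*, an endoplasmic reticulum calcium-binding protein, was the most abundant of the 15, at 1061 against 146 CPM. With each cell thinned to 3000 UMIs, *SLC2A5* was found in 51.6% of the tail bud cells and 5.01% of the other cells, *FGF8* in 36.1% and 2.83%, and *CYP26A1* in 5.93% and 0.485%.

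The lowest ratios belonged to *GP1BB* of platelets, the uroplakin *UPK3A*, *APOD*, and genes of the liver, yolk sac and heart. *SERPINA1*, *AHSG*, *TTR*, *TF* and *FETUB*, plasma proteins of hepatic or yolk sac endoderm, stood at 0.0251 to 0.0446 of the other cells. *AHSG* was at 8.75 CPM against 310 and *TTR*, which carries thyroid hormone, at 1.98 against 64.2. The cardiac factor *TBX20* and the gluconeogenic enzyme *FBP1* had 1 UMI each in the tail bud cells, with ratios of 0.0316 (0.000797 to 0.177) and 0.0294 (0.000741 to 0.165). *AHSG* was detected in 9.29% of the tail bud cells, 8.68% of the other cells and 10.7% of the cells with at least 5 *AHSP* UMIs, so the difference lay in other cells with many UMIs.

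Of the 19 genes on the caudal progenitor list that are not of the rule, 10 had at least 100 UMIs over both groups. Among the 9828 genes with that minimum, 3.47% were at least 2-fold higher and 6.55% at least 2-fold lower, with a median log2 ratio of 0.11. On the caudal list 8 of 10 were higher and 1 lower, with a median log2 ratio of 1.74. Besides *FGF8*, *WNT5B* and *CYP26A1*, they were *WNT5A* (7.06 against 0.928 CPM), *GDF11*, the TGF-beta ligand that marks the passage from trunk to tail (14.8 against 4.04), *SALL4* (44.2 against 14.6), *LIN28A* (67.5 against 29.1) and *GREB1* (8.19 against 3.60). *FST*, the follistatin that binds activin and GDF11, was lower, at 34.0 against 117 CPM. *LIN28B*, the paralog of *LIN28A* in blocking let-7 microRNAs, was level, with a ratio of 0.976 (0.935 to 1.02). Rare genes of the early streak and node were found in few of the cells but in fewer of the others. *NKX1-2*, a factor of the caudal epiblast, was in 11 tail bud cells and in 0.0460% of the other cells. *MIXL1* was in 7 cells against 0.0230%. *EOMES* was in 0 of the 635.

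Of 14 FGF pathway genes with the UMI minimum, 7 were higher, 3 lower and 4 within 2-fold, with a median log2 ratio of 0.80. *DUSP6*, an ERK phosphatase induced by FGF signalling, was in 566 of the 635 cells (89.1%) at 358 CPM, against 30.2% and 73.5 CPM in the other cells, and in 5.82% of the cells with at least 5 *AHSP* UMIs. *IL17RD*, a feedback inhibitor of FGF receptors, stood at 64.1 against 11.3 CPM. *SPRY1*, *SPRY2* and *ETV5*, further FGF targets, were also higher, at ratios of 2.32 to 3.42 but under 6 CPM each. The receptors differed from each other, with *FGFR1* higher (86.0 against 39.3 CPM) and *FGFR2* lower (6.21 against 16.2 CPM). The ligands *FGF5* and *FGF18* were lower and had 2 and 4 UMIs in the tail bud cells. *FGF4*, a ligand of the early tail bud, had 12 UMIs there, in 1.57% of the cells.

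Among 20 WNT pathway genes 7 were higher and 1 lower, with a median log2 ratio of 0.52. The higher ones were the ligands *WNT5A* and *WNT5B*, the receptor *FZD10*, the nuclear effector *LEF1*, the feedback inhibitors *AXIN2* and *NKD1*, and the planar polarity gene *PRICKLE1*. *NKD1* stood at 63.7 against 19.8 CPM, *FZD10* at 45.9 against 13.8 and *LEF1* at 35.3 against 10.9. *RSPO3*, a secreted amplifier of WNT signals, was at 158 against 105 CPM, a ratio of 1.50 that stayed under the fold used. Its receptor *LGR4* was lower, at 25.8 against 54.1 CPM. *WNT8A* had 10 UMIs, each in a different tail bud cell. *PTK7*, the planar polarity co-receptor, was among the 15 named above, at 24.0 against 3.60 CPM.

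Of 10 genes of retinoic acid handling, 4 were higher, 3 lower and 3 within 2-fold, with a median log2 ratio of -0.34. Higher were the degrading enzyme *CYP26A1*, the receptor *RARG* (60.8 against 10.9 CPM) and the binding proteins *CRABP1* (2125 against 603) and *CRABP2* (647 against 233). *CRABP1* was in 97.3% of the tail bud cells, 44.5% of the other cells and 14.0% of the cells with at least 5 *AHSP* UMIs. Lower were the synthesising enzyme *ALDH1A2* (4.09 against 8.90 CPM), the retinal reductase *DHRS3* and the receptor *RARB*. The receptors *RARG* and *RARB* thus went opposite ways.

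Of 12 Notch pathway genes 3 were higher and 0 lower, with a median log2 ratio of 0.47. *DLL3* and *DLL1*, Notch ligands, stood at 238 against 31.0 CPM and 93.5 against 22.1 CPM, and *LFNG*, the glycosyltransferase of the segmentation clock, at 12.0 against 2.44. These were the 3 higher genes. *PCDH8*, a protocadherin of presomitic mesoderm, had 59 UMIs and a ratio of 17.5 (11.4 to 27.1). Of 11 presomitic genes 5 were higher, 2 lower (*CER1* and *TCF15*) and 4 within 2-fold, with a median log2 ratio of 0.16, close to the 0.11 of all genes. The genes of the segment boundary *MESP1*, *MESP2* and *RIPPLY1* had 2, 1 and 1 UMIs in the tail bud cells. Of 8 somite genes 7 were lower, with a median log2 ratio of -1.77 for the list, among them *MEOX1* (3.25 against 13.3 CPM) and *TWIST1* (13.3 against 30.0), and *PAX3* was higher at 46.6 against 21.6 CPM. *PAX3* is also a gene of the dorsal neural tube.

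On most lists of other cell types no gene was higher, while the number of lower genes varied. None of the genes with the UMI minimum was higher on the lists for gut endoderm (0 of 8), surface ectoderm (0 of 4), trophoblast and amnion (0 of 5), lateral and intermediate mesoderm (0 of 12), endothelium (0 of 4), neural crest (0 of 2), cardiomyocytes (0 of 3), mesenchyme (0 of 5) and extraembryonic endoderm (0 of 5). Lower were 4 of 8 for gut, 8 of 12 for lateral mesoderm and all 5 for mesenchyme and for extraembryonic endoderm, with median log2 ratios of -0.96, -1.12, -2.95 and -3.98. Lower on the remaining lists were 2 of 4 for surface ectoderm, 4 of 5 for trophoblast and amnion, 2 of 4 for endothelium, 2 of 2 for neural crest and 3 of 3 for cardiomyocytes. The germ cell, myeloid, neuron, notochord and red cell lists also had 0 higher genes, and lower were 1 of 2, 1 of 1, 0 of 3, 0 of 2 and 0 of 4 of their genes. On the notochord list *NOTO*, a node and notochord factor, was in 11 tail bud cells with up to 6 UMIs in a cell (23 UMIs, against 9 in all other cells of the library). *SHH*, the signal of the notochord, was in 6 tail bud cells, of which 5 also held *T*, so a few of the cells carried midline genes. The red cell list was at 107 CPM in the tail bud cells and 143 CPM in the other cells, both after the *AHSP* limit.

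Of 11 genes of adhesion and epithelial state 2 were higher (*CDH2* and the integrin *ITGA5*) and 3 lower (*CDH1*, *SNAI2* and *TWIST1*), with a median log2 ratio of 0.01. *EPCAM*, an epithelial adhesion molecule, was in 58.4% of the tail bud cells, 21.9% of the other cells and 4.32% of the cells with at least 5 *AHSP* UMIs, at 133 against 71.2 CPM, a ratio of 1.87 that stayed under the fold used. *CDH2*, N-cadherin, stood at 65.6 against 26.4 CPM. *CDH1*, E-cadherin, had 2 UMIs, at 0.282 against 2.86 CPM. *SNAI2*, a repressor of epithelial genes, had 4 UMIs, and *VIM*, vimentin, was at 1076 against 1657 CPM. *CXCR4*, a chemokine receptor, stood at 77.2 against 20.7 CPM. Cell cycle genes were within 2-fold throughout, with 0 of 36 S phase and 0 of 42 G2/M genes past it and median log2 ratios of 0.23 and 0.34, slightly above the 0.11 of all genes. Of 19 glycolysis genes 0 were higher and 1 lower, and of 18 genes of BMP and TGF-beta signalling 2 were higher, *GDF11* and the receptor *BMPR1B*, and 2 lower. On the neural list *SOX2* was higher (130 against 54.8 CPM) and *PAX6*, a factor of more mature neural progenitors, lower (3.25 against 11.1 CPM). Midkine (*MDK*), a secreted growth factor found in nearly every cell, stood at 3244 against 2512 CPM.

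*HOX* genes were higher as a group. Of 30 with the UMI minimum, 24 were higher in the tail bud cells of E16 HS and 2 lower, with a median log2 ratio of 1.81. *HOX* genes are arranged in order along their clusters, and higher paralog numbers are used later and further back in the body. Summed over all paralogs, they stood at 1068 CPM in the tail bud cells and 367 CPM in the other cells of E16 HS. Paralogs numbered 9 were the most abundant, at 268 against 96.2 CPM, and those numbered 10 had the largest ratio, 42.8 against 4.46 CPM. Number 11 stood at 32.0 against 19.1 CPM, a ratio of 1.68. Numbers 12 and 13 were lower in the tail bud cells, at 0.565 against 2.41 CPM (ratio 0.234, 0.0632 to 0.610) and 2.68 against 8.54 CPM (ratio 0.314, 0.188 to 0.495). *HOXC12* and *HOXA13* were the 2 lower genes.

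The E19 HS tail bud cells held *HOXC12*, which was near 0 in those of E16 HS. *HOXC12* had 129 UMIs in 33 of the 45 cells (73.3%), 332 CPM (277 to 394), against 4 UMIs in 4 of the 635 cells of E16 HS, or 0.565 CPM (0.154 to 1.45). The E16 HS level was 0.00170 of the E19 HS level (0.000457 to 0.00446). In the other cells of E19 HS it was found in 0.523% at 1.83 CPM, and 81 of the 115 UMIs there lay in the 245 cells that carried exactly 1 of the 9 genes of the rule. Cells with *HOXC12* held 1 to 8 UMIs of it, with a median of 4, and 0.0714% of the cells with at least 5 *AHSP* UMIs had any. Thinned to 3000 UMIs, 51.2% of the tail bud cells and 0.344% of the other cells of E19 HS still had it. By paralog number, E19 HS tail bud cells stood at 66.9 CPM for 10, 165 for 11, 332 for 12 and 23.2 for 13, against 3.67, 9.65, 1.91 and 1.55 CPM in its other cells. *HOXA11* alone stood at 97.7 CPM (69.2 to 134) in E19 HS and at 20.9 (17.7 to 24.5) in E16 HS.

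**Figure D3:**
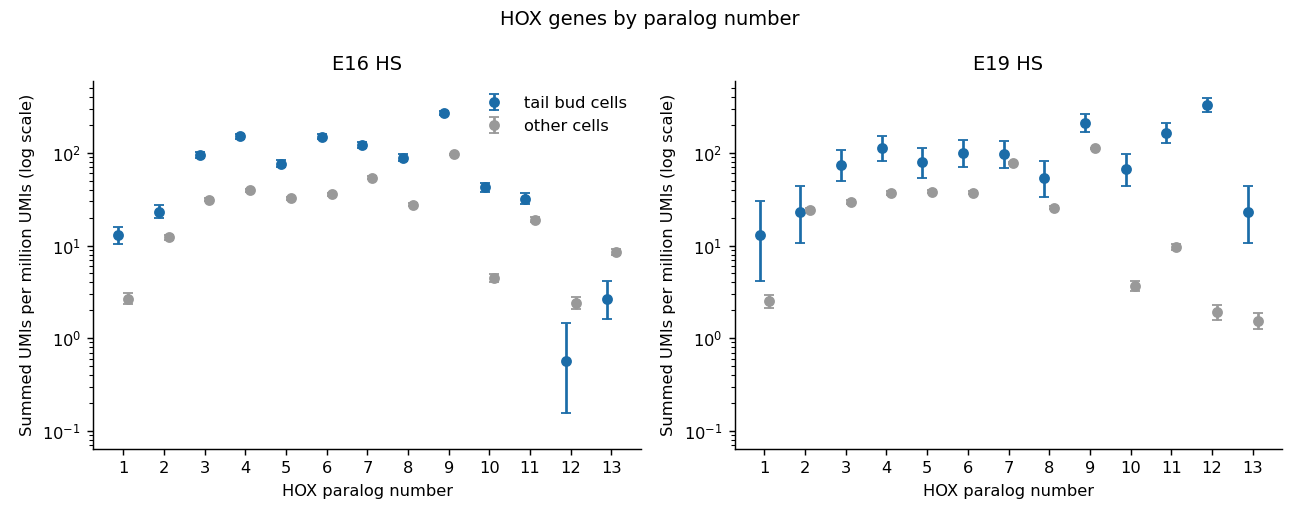
*HOX* UMIs summed by paralog number in tail bud cells (blue) and other cells (grey) of E16 HS (left) and E19 HS (right), in CPM on a log scale, with exact 95% intervals. Tail bud cells of E16 HS dropped to 0.565 CPM at number 12, where those of E19 HS reached 332 CPM.

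Within E19 HS, some genes were more often detected in the 33 cells with *HOXC12* than in the 12 without it. *FGF8* was in 25 of 33 and 3 of 12, and *SLC2A5* and *ERICH2* each in 31 of 33 and 5 of 12, with intervals that did not overlap. For *FGF8* they nearly met, with a lower limit of 57.7% and an upper limit of 57.2%. *PCP4* was in 14 of 33 and 0 of 12 and *HOXA11* in 22 of 33 and 3 of 12, with intervals that overlapped. The intervals of all genes of the rule overlapped. *CDX2* was in 26 of 33 and 9 of 12, *CDX4* in 17 of 33 and 6 of 12 and *MSGN1* in 6 of 33 and 2 of 12. *FGF17* was in 15 of 33 and 3 of 12, *WNT3A* in 4 of 33 and 0 of 12 and *HES7* in 3 of 33 and 0 of 12. *SOX2* was in 11 of 33 (33.3%, 18.0 to 51.8%) and 7 of 12 (58.3%, 27.7 to 84.8%), and *T* in 12 of 33 and 4 of 12, again with overlapping intervals. The cells with and without *HOXC12* had like depths, with medians of 7694 and 7883 UMIs. All come from 1 embryo, so the cells are no replicates. Overlap of the intervals is given as a description and is no test.

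Between the stages, 363 of 4356 genes with at least 20 CPM in either group were at least 2-fold higher in the tail bud cells of E16 HS (8.33%) and 200 at least 2-fold higher in those of E19 HS (4.59%). The counts depend on 45 cells with 388766 UMIs in E19 HS, where 3 UMIs amount to 7.72 CPM. Several genes that set the tail bud cells apart at E16 stood at a like level at E19. *FGF8* was at 181 CPM (171 to 191) in E16 HS and 208 (165 to 259) in E19 HS, *DLL3* at 238 and 268 (219 to 324), *CRABP2* at 647 and 622 (547 to 706), *RARG* at 60.8 and 59.2 (37.5 to 88.8) and *LEF1* at 35.3 and 33.4 (17.8 to 57.2). For each of these genes the interval of the ratio held 1. *WNT5B* was higher at E16, 114 CPM against 43.7, a ratio of 2.61 (1.62 to 4.49), and so was *LIN28B*, 316 against 108 CPM, a ratio of 2.92 (2.15 to 4.06). Higher at E19 were *GDF11* (38.6 against 14.8 CPM), *LFNG* (41.2 against 12.0), *CDH2* (134 against 65.6), *PAX6* (41.2 against 3.25) and the immediate early gene *JUN* (131 against 38.1). Further genes among those that led in this direction were *C4orf48*, a small secreted protein gene, at 324 against 110 CPM and the linker histone *H1-2* at 399 against 158 CPM. The other cells of E19 HS were also above those of E16 HS for *LFNG* (6.92 against 2.44 CPM), *CDH2* (58.3 against 26.4), *PAX6* (34.3 against 11.1), *JUN* (219 against 72.0), *C4orf48* (285 against 94.3) and *H1-2* (501 against 157). For *GDF11* they stood at 4.24 against 4.04 CPM.

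The genes highest at E16 against E19 were collagens and keratins. *COL1A2* stood at 92.0 CPM against 1 UMI (a ratio of 35.8, 6.40 to 1416), *COL1A1* at 117 CPM against 2 UMIs (22.7, 6.25 to 187), *COL4A6* at 27.2 CPM against 1 UMI and *KRT8* at 178 CPM against 3 UMIs (23.0, 7.86 to 112). *TOMM6*, a mitochondrial import subunit, was at 27.4 CPM against 1 UMI. *KRT18*, the partner of *KRT8* in simple epithelia, stood at 1235 against 162 CPM. These genes also differed between the other cells of the libraries, where *COL1A1* was at 1019 CPM in E16 HS and 135 in E19 HS and *KRT18* at 1988 and 601 CPM. Of the 826 *COL1A1* UMIs in the tail bud cells of E16 HS, 667 lay in 102 of the cells, described next as subcluster 4.

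Clustered by themselves, the 635 cells of E16 HS fell into 5 subclusters. The clusters rest on the same genes by which they are described, so no test applies, and each is given by its leading genes. Subcluster 1 (203 cells, 32.0%) was led by genes that included *RAB3B*, *ACP5*, *CYP26A1* (68.2 CPM against 15.3 in the rest of the tail bud cells) and *RCN2* (2465 against 582). It held *T* in 39.9% and *FGF17* in 67.5% of its cells, the highest shares of the 5. Its *FGF8* level was 361 CPM and its *WNT5B* level 224 CPM, also the highest.

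Subcluster 2 (156 cells, 24.6%) was led by the integrin *ITGA4*, the myosin *MYH7*, the guidance molecule *SEMA3A*, the neural repressor *HES3* and the cadherin *CDH6*. *SOX2* was in 91.0% of its cells at 380 CPM, *CDX4* in 88.5%, *T* in 8.33% and *MSGN1* in none. Subcluster 3 (135 cells, 21.3%) was led by *INKA1*, *PLXNA2*, *CXCR4*, *DLL3* and *STOX1*. *DLL3* was in 98.5% of its cells at 595 CPM, *MSGN1* in 15.6% and *SOX2* in 6.67%. Subcluster 1 also held *DLL3*, in 68.0% of its cells at 326 CPM, and *MSGN1* in 12.3%. *HES7* was in 18.2% of subcluster 1 and 15.6% of subcluster 3. The 3 subclusters therefore differed along the *SOX2* and *DLL3* genes, with *FGF8* at 361, 148 and 154 CPM in them.

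Subcluster 4 (102 cells, 16.1%) was led by the complement gene *C1QA* of macrophages, found in 4 of its cells, the chemokine *CXCL14*, the limb and lateral mesoderm factors *HAND2* (68.1 CPM against 2.33) and *PITX1* (54.2 against 2.33), and *LGALS3*. *COL1A1* stood at 441 CPM there, against 13.9 to 49.7 in the other 4 subclusters, and *KRT18* at 3884 CPM. Its cells carried *CDX2* in 96.1% and *CDX4* in 82.4%, *T* in 15.7% and *FGF17* in 8.82%. They had a median of 14188 UMIs, and 28 of them were in the top 8% of doublet scores, against 35 of the 533 remaining tail bud cells. Genes of several other cell types thus led this subcluster, and the part of doublets was not tested. Subcluster 5 (39 cells, 6.14%) was led by *KRT8*, *CDX2*, *DYNLRB1*, *GPX1* and *TOMM7*, with ratios of 2.33 at most. It was shallow, with a median of 4372 UMIs and 0.0684% mitochondrial UMIs, against 2.90 to 3.34% in the others, and was left unnamed. At a resolution of 0.25 in place of 0.5, subclusters 1 and 3 merged into 1 cluster of 344 cells with a few others, 155 of the 156 cells of subcluster 2 stayed together, and 99 cells of subcluster 4 joined 37 of subcluster 5 in a cluster of 136.

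**Figure D4:**
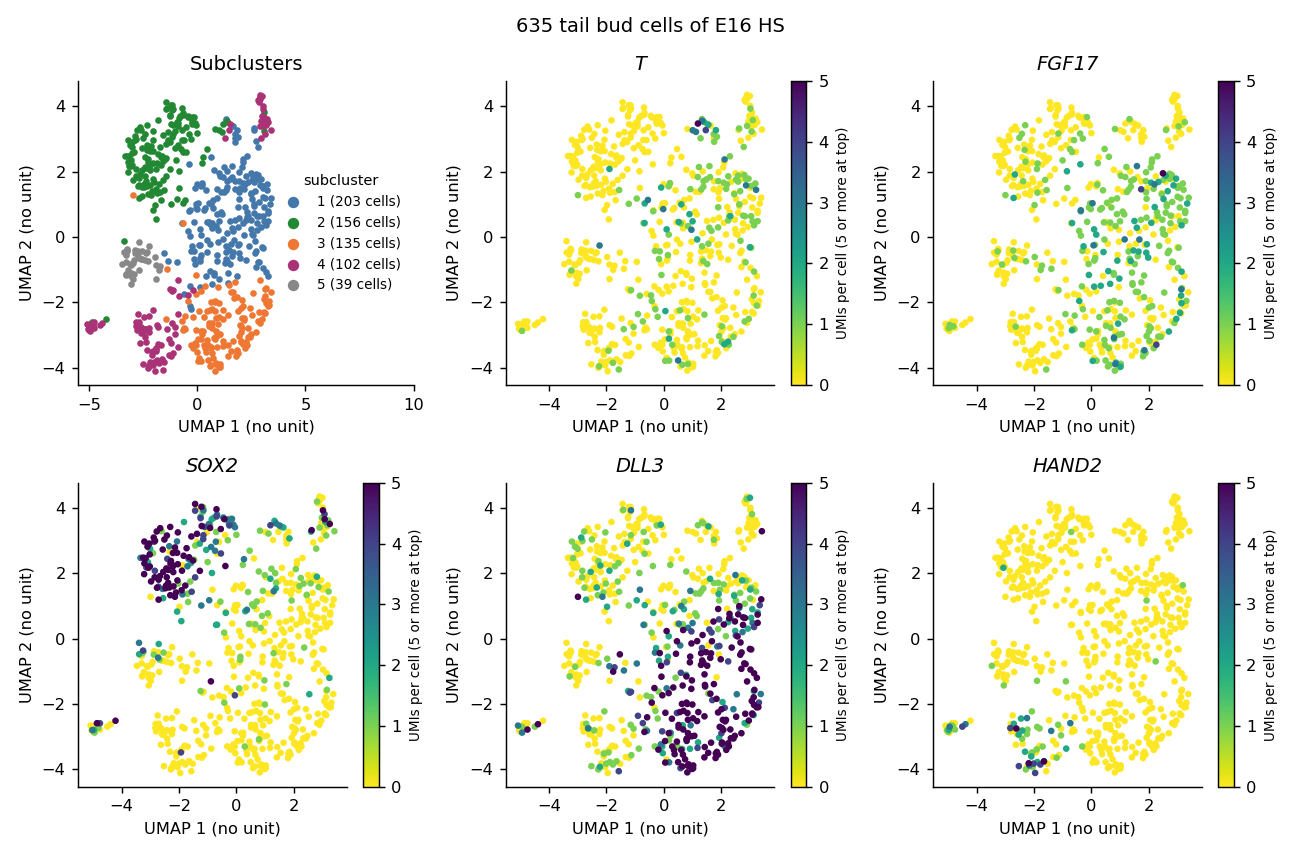
The 635 tail bud cells of E16 HS placed by UMAP, a map without units on which cells of like profile lie close, coloured by subcluster (top left) and by the UMIs per cell of 5 genes. *SOX2* filled subcluster 2 (91.0% of cells) and *DLL3* subcluster 3 (98.5%), though *DLL3* was also in 68.0% of subcluster 1. *FGF17* was most frequent in subcluster 1 (67.5%) and *HAND2* lay in subcluster 4 (44.1%).

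The progenitors that give rise to both neural tube and mesoderm are known for *T* with *SOX2*. In E16 HS both were detected in 40 tail bud cells (6.30%, 4.54 to 8.48%) and in 0 of the 8701 other cells, of which 18 had *T*. Since *T* is a gene of the rule, 88.7% of the cells with it under the *AHSP* limit were tail bud cells. The rule thus left few other cells with *T*, and the 0 is no separate support. *SOX2* was in 28.4% (21.1 to 36.6%) of the 141 cells with *T* and in 37.9% (33.6 to 42.3%) of the 494 without it. In E19 HS it was in 2 of the 16 cells with *T* (12.5%, 1.55 to 38.3%) and in 16 of the 29 without it (55.2%, 35.7 to 73.6%). Among the cells that met the rule, *SOX2* was less common beside the segmentation genes. Of the 133 cells of E16 HS with *HES7*, *MSGN1* or *TBX6*, 27 had *SOX2* (20.3%, 13.8 to 28.1%), against 39.8% (35.5 to 44.3%) of the 502 without these genes. Cells without *T*, or without the segmentation genes, had to enter by other genes of the rule. These shares of *SOX2* thus describe the chosen cells and were not tested. The median depths of the cells with *SOX2* alone and with a segmentation gene alone were 10386 and 9370 UMIs.

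Those 200 and 106 cells differed in genes outside the split. *HES7*, *MSGN1* and *TBX6*, like *T* and *FGF17* in the split further below, are genes of the rule. Cells without them had to enter by other genes of the rule, so the differences describe the groups and were not tested. *CITED1*, a transcriptional coactivator, stood at 29.2 CPM in the *SOX2* cells and 296 in the segmentation cells, *DLL3* at 54.0 and 465, *RSPO3* at 50.8 and 283, and *CXCR4* at 30.0 and 131. The neural tube factor *IRX3* stood at 44.8 and 2.78 CPM, *HES3* at 31.6 and 0.927, and *EPCAM* at 197 and 70.4. *FGF8* was close in them, at 197 and 172 CPM. *FGF8* was highest in the 27 cells with both, at 330 CPM. *T* or *FGF17* marked 325 cells, in which *RCN2* was at 1782 CPM, *FGF8* at 297 and *CYP26A1* at 48.1, against 386, 72.5 and 10.7 CPM in the 310 cells with neither. *HAND2* was at 5.25 CPM in the former and 26.8 CPM in the latter.

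Between the breeds at E19, 797 of 4716 genes with at least 20 CPM in either group were at least 2-fold higher in the 13 E19 HSTS cells that met the rule (16.9%) and 518 at least 2-fold higher in the 45 E19 HS tail bud cells (11.0%). The 13 cells held 130566 UMIs, so that 3 UMIs amount to 23.0 CPM and most of these counts rest on few UMIs. Several genes that were high in the tail bud cells of both HS libraries were at or near 0 in them, others were lower, and *DUSP6* was close. *FGF8* had 1 UMI against 81 in E19 HS, or 7.66 against 208 CPM (ratio 0.0368, 0.000919 to 0.211). *DLL3* had 1 against 104 (0.0286, 0.000718 to 0.163), *SLC2A5* 2 against 122 (0.0488, 0.00585 to 0.180) and *CITED1* 1 against 56 (0.0532, 0.00132 to 0.309). *GDF11* and *CYP26A1* had 0 UMIs against 15 and 17. *RCN2* stood at 222 against 1425 CPM, *ERICH2* at 38.3 against 342, *RSPO3* at 30.6 against 216 and *CRABP1* at 99.6 against 1610 (ratio 0.0618, 0.0327 to 0.107). *HOXC12* had 3 UMIs in 2 of the 13 cells, against 129 in 33 of the 45. The mix of cells was unlike, since 12 of the 13 cells had neither *T* nor *FGF17*, against 15 of the 45. In E16 HS, cells with neither gene had *FGF8* at 72.5 CPM, against 297 in cells with *T* or *FGF17*. For *DLL3* the levels were 137 and 345 CPM and for *SLC2A5* 164 and 415. The part of this mix in the values between the breeds was not tested.

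Other genes stood as high in the 13 cells as in E19 HS or higher. *SOX2* was in 10 of 13 cells (76.9%) at 360 CPM, against 18 of 45 (40.0%) at 206 CPM, a ratio of 1.75 (1.19 to 2.54). Neither *T* nor *FGF17* was found in 12 of the 13 cells and in 15 of the 45. Of those cells, 10 of 12 in E19 HSTS (83.3%) and 13 of 15 in E19 HS (86.7%) had *SOX2*, which is close. *DUSP6* was at 222 against 260 CPM (ratio 0.855, 0.545 to 1.30), *FGFR1* at 222 against 126, *EPCAM* at 107 against 84.9 (ratio 1.26, 0.625 to 2.43), *VIM* at 3240 against 1857 and *LIN28B* at 268 against 108 CPM. Paralogs of *HOX* number 9 stood at 260 against 211 CPM, while number 11 stood at 68.9 against 165. The genes that led higher in E19 HSTS were the apolipoprotein *APOA1* (414 against 74.6 CPM), the ribosomal protein *RPS6* (3048 against 949), *Metazoa_SRP*, a signal recognition particle RNA (659 against 260), the keratin *KRT19* (398 against 167) and the mitochondrial *MT-ND5* (1317 against 625). *GAPDH*, the glycolytic enzyme, was the lowest, at 15.3 against 1921 CPM. *RPS6* and *GAPDH* differed alike in the other cells of these libraries, at 3246 against 961 and 6.71 against 1909 CPM.

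The 236 E19 HSTS cells with exactly 1 of the 9 genes were set beside the 245 such cells of E19 HS, since they were chosen less strictly and are more numerous. *FGF8* stood at 11.4 CPM in E19 HSTS and 29.0 in E19 HS, *DLL3* at 11.4 and 38.1, *SLC2A5* at 27.7 and 58.0 and *HOXC12* at 2.73 and 41.2. In the cells with none of the 9 genes these levels were 9.42 and 7.36, 18.8 and 20.5, 5.53 and 5.79, and 0.306 and 0.560 CPM. *FGF8*, *DLL3* and *SLC2A5* were thus close between the libraries in cells with none of the 9 genes, and all 4 were lower in E19 HSTS in cells with exactly 1. The 1 gene held was not the same mix in the 2 libraries. *T* was in 13 and *FGF17* in 14 of the 245 cells of E19 HS, against 4 and 2 of the 236 of E19 HSTS. *CDX2* was in 122 and 157 of them. The part of this mix in the lower levels was not tested. With 1 embryo of each breed, breed and embryo cannot be told apart.

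**Figure D5:**
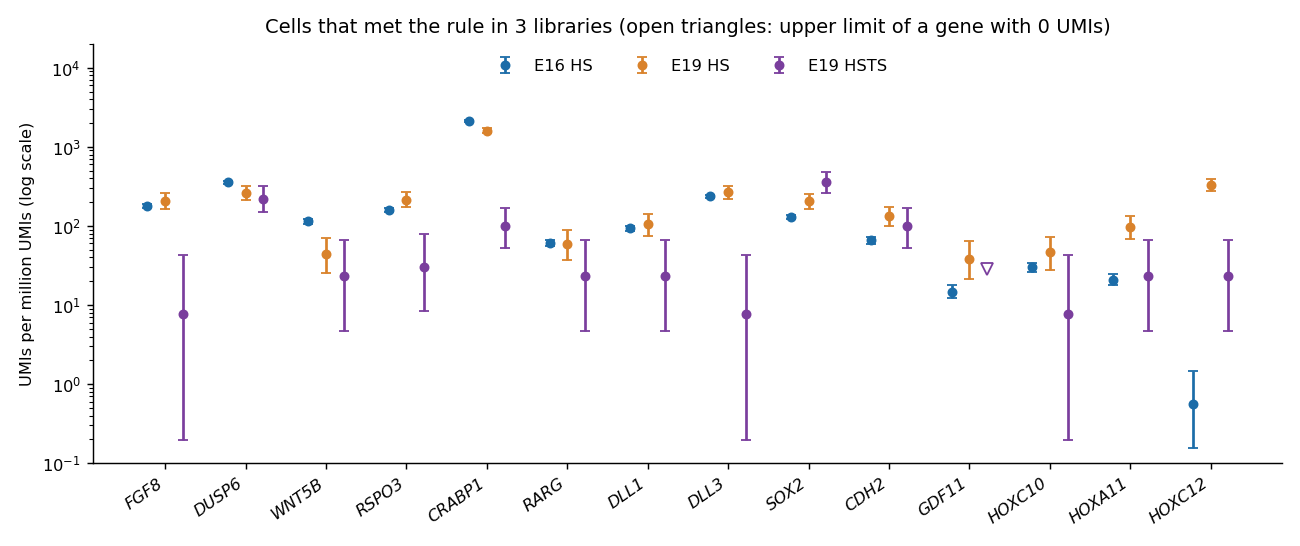
Levels of 14 genes outside the rule in the cells that met it, in CPM on a log scale, for E16 HS (635 cells), E19 HS (45) and E19 HSTS (13). Lines are exact 95% intervals and open triangles upper limits at 0 UMIs. *FGF8* lay at 181, 208 and 7.66 CPM, *SOX2* at 130, 206 and 360, and *HOXC12* at 0.565, 332 and 23.0.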

How the data were processed

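Per the labels, the authors made 10x Genomics 3′ libraries of whole embryos, aligned the reads to the sheep genome and tallied them by gene and barcode in Cell Ranger 6.1.2. The deposited values are raw UMI counts, without normalization. A barcode was kept if it had 200 to 6000 genes, if its UMIs numbered 1000 to 30000, and if symbols starting MT- took no more than 10% of them, as in the study. UMIs were summed over cells and divided by their total, in units of 1000000 (CPM). Exact Poisson, binomial (Clopper-Pearson) and conditional ratio intervals were computed with scipy 1.17.1 in Python 3.11.15. With 1 library per condition no test was made. A gene at 0 UMIs was set to 3 counts for a ratio. The E16 HS cells were clustered with Seurat 5.3.0 in R 4.3.3 (2000 variable genes, 25 components, resolution 0.5, mitochondrial share regressed out). Doublets were scored with Scrublet in scanpy 1.11.5 and not removed. The rule, its members and the gene lists were chosen with earlier results of these data known. Of 417 list genes, 25 were not found. Genes named are those of the rule and the lists, *AHSP*, 15 with the largest and 10 with the smallest ratio in E16 HS (at least 100 UMIs), 5 in each direction between libraries (at least 50 UMIs) and 5 leading genes per subcluster. Simulated data with known answers were used to check the rule, the thinning and the intervals. The depth of the deposited libraries was 94754580 to 128271878 UMIs. E16 HSTS was not analysed here, and 1 gene that the naming rule picks is not reported here.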

Additional observations from a re-analysis of the deposited data

Results flagged for a closer look

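The filters left out 1316 barcodes of E16 HS, and 32 of them carried at least 2 of the 9 genes with under 5 *AHSP* UMIs (2.43%, 1.67 to 3.42%). They were looked at because no comparison uses them. Of the 32, 27 lay above 30000 UMIs, where they were 8.65% (5.78 to 12.3%) of 312 barcodes, 4 exceeded the mitochondrial limit and 1 had under 1000 UMIs. In E19 HS 0 of 1435 left-out barcodes carried 2 of the genes and in E19 HSTS 1 of 1496. A deep barcode meets a rule of detection more easily, and the part of depth was not tested.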

How the results depend on the processing

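The share of cells was 1.91%, 0.169% and 0% (E16 HS, E19 HS, E19 HSTS) with at least 3 genes of the rule, 2.43%, 0.245% and 0.0104% without *CDX2* in it, and 1.73%, 0.162% and 0.0352% with cells thinned to 3000 UMIs. In E16 HS it was 4.25% with *AHSP* at 0 UMIs and 6.09% without cells under 0.5% mitochondrial UMIs, a setting chosen after seeing the data. The order of the libraries was the same in each of these settings. Within E16 HS, thinning gave 186 genes higher and 190 lower, all other kept cells as comparison gave 214 higher, and a minimum of 50 CPM gave 59 and 70. Between stages, genes higher in E19 HS numbered 432 with at least 3 genes of the rule, 351 without *CDX2* and 1916 with thinning, and a minimum of 50 CPM gave 122 and 57. Between breeds, the rule without *CDX2* left 1 cell of E19 HSTS and gave 2528 genes higher there and 194 lower, thinning left 3 cells and gave 3761 and 139, leaving out the highest doublet scores gave 1211 higher, and 50 CPM gave 255 and 225. With at least 3 genes E19 HSTS had no cell, and no breed value could be had. Resolutions of 0.25 and 1.0 gave 3 and 9 subclusters. TMM scaling in edgeR 4.0.16 moved the median log2 ratio of genes within E16 HS from 0.13 to -0.04 and between breeds from 0.11 to -0.06. For the 15 higher and 10 lower named genes within E16 HS, 171 ratios over the settings stayed within their counting interval, 64 moved and 0 changed direction. A further 15 had 0 UMIs in the cells and gave no value. With all other kept cells as comparison 10 stayed and 15 moved, and with thinning 9 stayed and 10 moved. Named genes between libraries were not part of this count. No paired analysis was possible because each condition has 1 library. The number of cells limits the E19 HSTS values, since 0 of 13 cells allows a share of up to 24.7%.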
